A study of Mus musculus with 7 samples.

Results

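The respiratory chain of the mitochondrial inner membrane was examined at the mRNA level in kidneys of cisplatin-treated mice. Members were the protein-coding genes of the deposited count table whose symbols are those of subunits of complexes I to V (Nduf followed by a letter and a number, Sdha to Sdhd, Uqcr, Cyc1, Cox4 to Cox8, Atp5, and the mt- genes for Nd, Co, Cytb and Atp), with at least 10 counts in 3 or more libraries. Of 54532 genes in the table, 99 had such a symbol and 95 met the count minimum, 82 encoded in the nucleus and 13 on the mitochondrial chromosome. The other 4 were Cox6a2, with between 0 and 20 counts per library, and Cox7b2, Cox8c and a second Atp5o row, all listed at 0. All 95 members also passed edgeR's filter on low counts, which left 15351 genes for testing. The rule named no difference between groups, but Cox8b met its count minimum through saline libraries alone. Below, the counts of each member are called those of an mRNA, also where annotated mitochondrial genes overlap.

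Kidney RNA was sequenced in bulk from male C57BL/6J mice of 6 to 8 weeks, 7 libraries in all. Every animal had received cisplatin, a platinum drug toxic to kidney tubules, at 20 mg/kg through the tail vein, and no library without it was analysed here. The saline group had 4 libraries, labelled saline 1 to 4. The DXZ group had 3, labelled DXZ 1 to 3, from mice that also had DXZ at 40 mg/kg by tail vein 30 min ahead of cisplatin and again every 24 h over 3 days. The labels do not expand the name DXZ, and do not state whether each library was a separate animal, so the p-values below describe the spread between these 7 libraries. The question was which genes differed between the groups.

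The respiratory chain passes electrons from NADH through complex I, and from succinate through complex II, to complex III and on by cytochrome c to complex IV, where oxygen is reduced. Complexes I, III and IV pump protons, and complex V, the ATP synthase, uses the gradient to make ATP. All complexes but II combine nuclear-encoded subunits with subunits encoded by mitochondrial DNA, and the proximal tubule, which reabsorbs most of the filtered solute, is among the cell types richest in mitochondria.

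Total counts ranged from 16058157 to 18133736 per library, and 20803 to 21827 genes were detected. Proximal tubule markers moved with the groups: 9 of 15 fell in DXZ by edgeR's test and 0 rose, and their summed level was 10180 to 36623 CPM (counts scaled to a common library size) in saline against 5504 to 8455 CPM in DXZ. In a bulk sample, fewer cells of a type and less RNA per cell cannot be told apart. Over all tested genes, 3.24% rose and 2.31% fell by the same test. Some markers of other cell types passed too. Of 6 distal convoluted tubule markers 2 fell, with sums of 423 to 702 CPM in saline and 265 to 421 CPM in DXZ. Of 7 thick ascending limb markers 1 fell, and of 10 collecting duct markers 1 rose. None of 6 endothelial markers passed, and all 6 had negative log2 fold changes. Their sums overlapped, at 197 to 301 CPM in saline and 71.7 to 307 CPM in DXZ. None of 6 podocyte markers passed, all 6 with negative values, and none of 5 neutrophil markers, all 5 with positive values. Of 8 macrophage markers 1 rose, with 4 values positive and 4 negative. The part of these shifts in the values below was not tested. The calls over all genes rested on single libraries: 853 genes passed with 7 libraries, 4 without saline 4, 1 without DXZ 2 and 1574 without DXZ 1.

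Nuclear genes for these subunits are known targets of NRF-1 and of the ETS factor GABP, and promoter sequence is a feature that the members' choice did not use. RefSeq promoters (GRCm38.p6, 250 bases upstream to 50 downstream of the start) were matched for 67 of the 82 nuclear-encoded members. A gene was counted when any of its promoters held the letters. The NRF-1 motif GCGCATGCG, searched on both strands, was in 8 of the 67 (11.9%), against 2.61% of 17491 protein-coding genes with promoters of the same length. The ETS motif CCGGAAGT was in 5 (7.46%), against 5.69%. Of the 67 genes 12 held either motif, against 1397 of the 17491 protein-coding genes. Of the 67, 1 gene, Uqcr11, held both, at places that do not overlap. Printed with their motif letters in capitals are Uqcr11 (chr10:80406772-80407071, minus strand), the one with both motifs and the complex III gene of largest positive fold change; Cox6a1 (chr5:115348909-115349208, minus strand), where the NRF-1 letters read on both strands; and Cox8a (chr19:7217567-7217866, minus strand), the nuclear-encoded member of highest level per length, with the ETS letters at 2 places.
Uqcr11: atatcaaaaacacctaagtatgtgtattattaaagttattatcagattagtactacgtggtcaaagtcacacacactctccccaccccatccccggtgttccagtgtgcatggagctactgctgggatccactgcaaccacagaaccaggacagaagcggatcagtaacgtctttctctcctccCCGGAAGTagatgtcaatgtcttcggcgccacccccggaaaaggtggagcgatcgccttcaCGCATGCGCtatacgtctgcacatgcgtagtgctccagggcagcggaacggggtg
Cox6a1: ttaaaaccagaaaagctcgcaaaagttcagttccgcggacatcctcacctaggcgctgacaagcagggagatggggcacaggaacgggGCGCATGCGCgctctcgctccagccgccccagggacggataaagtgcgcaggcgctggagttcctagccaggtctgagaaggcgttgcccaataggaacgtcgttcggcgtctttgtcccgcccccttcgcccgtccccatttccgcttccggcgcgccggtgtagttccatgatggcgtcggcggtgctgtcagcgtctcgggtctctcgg
Cox8a: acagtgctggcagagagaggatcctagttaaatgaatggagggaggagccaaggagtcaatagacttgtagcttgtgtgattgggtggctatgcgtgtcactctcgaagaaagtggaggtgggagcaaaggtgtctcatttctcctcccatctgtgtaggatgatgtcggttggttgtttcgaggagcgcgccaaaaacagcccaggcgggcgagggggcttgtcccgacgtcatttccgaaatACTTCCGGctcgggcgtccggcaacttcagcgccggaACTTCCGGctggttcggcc

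In the Uqcr11 promoter the NRF-1 letters began 5 bases and the ETS letters 66 bases upstream of the start site. The Cox8a promoter had the ETS letters 6 bases upstream and 32 bases downstream of the start. The median over matched members was 19 CG dinucleotides per promoter, against 13 over protein-coding genes. A match of letters is a description of sequence and shows no binding. The promoters of Ndufs1 and the other 14 unmatched members were not analysed here.

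Most subunit mRNAs differed little between saline and DXZ kidneys. By edgeR's quasi-likelihood test over all genes, 1 of the 95 members passed an adjusted p below 0.05, where 5.56% of all 15351 genes did. That member was Ndufs1, lower in DXZ. The DXZ and saline ranges did not overlap for 15 of the 95 members, 6 higher and 9 lower, against 24.1% of all tested genes. At an unadjusted p below 0.05 there were 17 members, 12 higher and 5 lower, against 25.4% of all genes.

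Below, levels are listed in the order of the replicate numbers, and ± after a log2 fold change (DXZ over saline) is its SE. The median log2 fold change was 0.04 over the 95 members, 0.05 over the nuclear-encoded and -0.04 over the mitochondrially encoded ones, against 0.01 over all tested genes. Log2 fold changes lay within 0.5 of 0 for 85 of 95 members (89.5%), and for 74.8% of all tested genes. With each library's trend with gene length removed, the nuclear-encoded median was -0.02. Gene length here is the length in the deposited table, which counts exon bases and not the span on the chromosome. In 3 simulated data sets of this size and depth, 200 genes drawn from all 15351 were changed, fewer than the 853 called here. There edgeR recovered 43.0% of genes changed 2-fold and 82.3% of those changed 4-fold, and 6.7% of its calls were false. These rates do not measure the recovery of subunits. The median SE was 0.14 over nuclear-encoded members and 0.315 over mitochondrially encoded ones, against 0.18 over all tested genes. Small changes in single subunits can still be missed here.

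Other settings called from 0 to 5 members. DESeq2 called 5 (Ndufa5 and Ndufs6 higher, Ndufs1, Uqcrc2 and Cox8b lower), against 12.5% of all genes, and edgeR without a filter on low counts called Ndufs1 and Cox8b, against 3.62%. Without DXZ 1, edgeR called 4 members (Ndufs1 lower, Ndufa13, Ndufs7 and Uqcr10 higher), against 10.1%. Without both saline 1 and DXZ 1 it called 4 (Ndufs1 lower, Cox6b2, mt-Atp6 and mt-Co2 higher), against 8.65%. Without saline 1 it called mt-Atp6 alone, against 2.47%. No member passed with total counts as library sizes (4.03% of all genes), with the length trend removed (3.84%), with the replicate number as a block (0.554%) or with limma on unfiltered log2(FPKM + 1) (0.533%). No member passed in edgeR without saline 2, 3 or 4 (1.96%, 2.8% and 0.0263%) or without DXZ 2 or DXZ 3 (0.00637% and 0.897%).

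**Figure D1:**
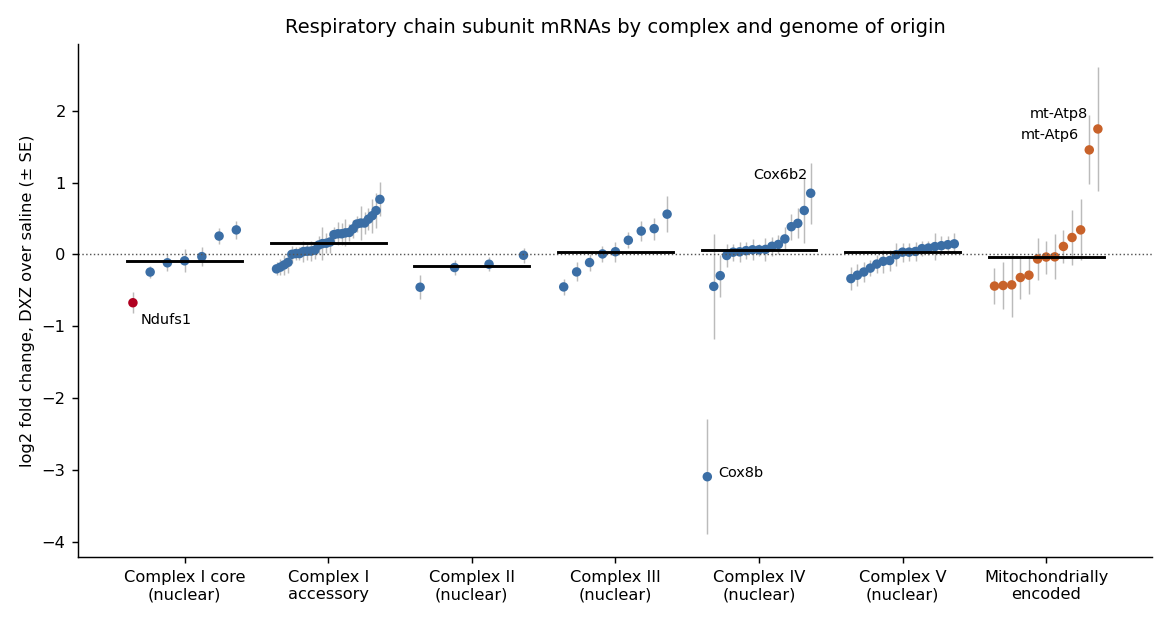
Log2 fold change of each of the 95 members (points, ± SE), DXZ over saline, by complex and genome of origin, with black lines at group medians. Ndufs1 (dark red) is the only member past the edgeR test. Cox8b, mt-Atp8 and mt-Atp6 lie farthest from 0, with wide errors.

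Complex I, which oxidises NADH, had 35 nuclear-encoded members: 7 core subunits that carry the flavin and the iron-sulfur clusters, and 28 accessory subunits. Ndufs1 (chromosome 1, 63143596 to 63176833, minus strand, GRCm38) encodes the largest subunit of complex I, which carries iron-sulfur clusters. Its level was 271, 208, 194 and 219 CPM in saline and 149, 121 and 150 CPM in DXZ. Every DXZ library was below every saline library. The mean of Ndufs1 was 223 CPM in saline (SD 33.5, n = 4) and fell to 140 CPM in DXZ (SD 16.2, n = 3), a log2 fold change of -0.67 ± 0.14 (adjusted p = 0.0415 by edgeR).

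Ndufs1 stayed lower with any single library left out, with log2 fold changes of -0.73 to -0.57, but its adjusted p by edgeR ranged from 0.042 to 0.116 and was below 0.05 in 1 of the 7 fits, that without DXZ 1. With the length trend removed the log2 fold change was -0.60 (adjusted p = 0.060 by edgeR). By exon length, Ndufs1 is the longest nuclear-encoded member in the table at 8086 bases. It shares 9 of its exon bases with Eef1b2 on the opposite strand, and Eef1b2 had a log2 fold change of 0.35 (adjusted p = 0.121 by edgeR).

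The other core subunits did not pass. Ndufv1, which holds the NADH-binding flavin site, measured 326, 296, 293 and 339 CPM in saline and 295, 229 and 360 CPM in DXZ. DXZ libraries lay on both sides of the saline range, and the log2 fold change was -0.09 ± 0.16 (adjusted p = 0.771 by edgeR). Ndufs8, an iron-sulfur subunit, was at 144 to 164 CPM in saline and 127 to 131 CPM in DXZ. Ndufs7, the subunit with the last iron-sulfur cluster before ubiquinone, was at 136 to 152 CPM in saline and 155 to 216 CPM in DXZ. These 2 did not overlap between groups, in opposite directions, and their adjusted p by edgeR were 0.124 and 0.133. They and the other members outside the naming rule, except Sdhc, are given because their ranges did not overlap, a choice made after their values were seen. Sdhc, whose ranges overlapped, is given beside the other complex II genes.

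The accessory subunits had positive log2 fold changes for 24 of 28, with a median of 0.16, while 5 of 7 core subunits had negative ones, with a median of -0.09. Single libraries moved these medians: the accessory one was 0.09 without DXZ 3 and 0.27 without saline 4, and the core one was -0.23 without DXZ 3. Over all tested genes, 7873 of 15351 log2 fold changes were positive. All tested genes of 360 to 1108 and of 1131 to 2101 bases had medians of 0.21 and 0.11. No accessory subunit passed edgeR's test, and 8 of 28 had an unadjusted p below 0.05, all higher in DXZ, where 25.4% of all genes had such a p and 14.0% were higher with one. Ndufs6, a zinc-binding accessory subunit that joins late in assembly, had the largest positive value of complex I. Its level was 58.7, 59.7, 76.1 and 80.1 CPM in saline and 121, 74.7 and 155 CPM in DXZ. DXZ 1 and DXZ 3 were above all saline libraries, and DXZ 2 was inside their range, with a log2 fold change of 0.77 ± 0.24 (adjusted p = 0.0913 by edgeR). Ndufs6 shares 30 exon bases with Mrpl36 on the opposite strand, whose own log2 fold change was 0.27.

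Ndufa2 had the highest level per length of the nuclear-encoded complex I members (259 FPKM, counts per length and scaled library). It measured 113, 105, 138 and 132 CPM in saline and 190, 113 and 255 CPM in DXZ. The log2 fold change was 0.61 ± 0.25 (adjusted p = 0.169 by edgeR). Again DXZ 1 and DXZ 3 were high, and DXZ 2 lay among the saline libraries.

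Accessory subunits whose groups did not overlap were Ndufa5, Ndufa13, Ndufb3 and Ndufc1, higher in DXZ, and Ndufb5, lower. Ndufa5 ranged from 110 to 142 CPM in saline and from 155 to 181 CPM in DXZ, with a log2 fold change of 0.42 ± 0.12 (adjusted p = 0.0728 by edgeR). Ndufa13, also known as GRIM-19, ranged from 144 to 181 CPM in saline and from 187 to 284 CPM in DXZ, with a log2 fold change of 0.49 (adjusted p = 0.102 by edgeR). Ndufb5 ranged from 142 to 147 CPM in saline and from 113 to 131 CPM in DXZ. It shares 616 of its 4995 exon bases with Mrpl47 on the opposite strand, so its counts are uncertain.

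The ratio of summed accessory to summed core CPM of complex I was 1.88, 2.09, 2.29 and 2.24 in saline and 2.58, 2.48 and 2.68 in DXZ. All DXZ libraries were above all saline libraries. The mean was 2.13 ± 0.186 (SD, n = 4) in saline and 2.58 ± 0.0975 (SD, n = 3) in DXZ. Without Ndufs1 in the core sum the ratio was 2.24 to 2.62 in saline and 2.70 to 2.93 in DXZ. By exon length, core genes are longer than accessory genes, with medians of 2178 and 1234 bases. With the length trend removed, the medians of log2 fold change were -0.12 for core and 0.13 for accessory subunits. That removal left a correlation of -0.25 between log2 fold change and length over the nuclear-encoded members. The ratio was not among the measures planned beforehand.

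**Figure D2:**
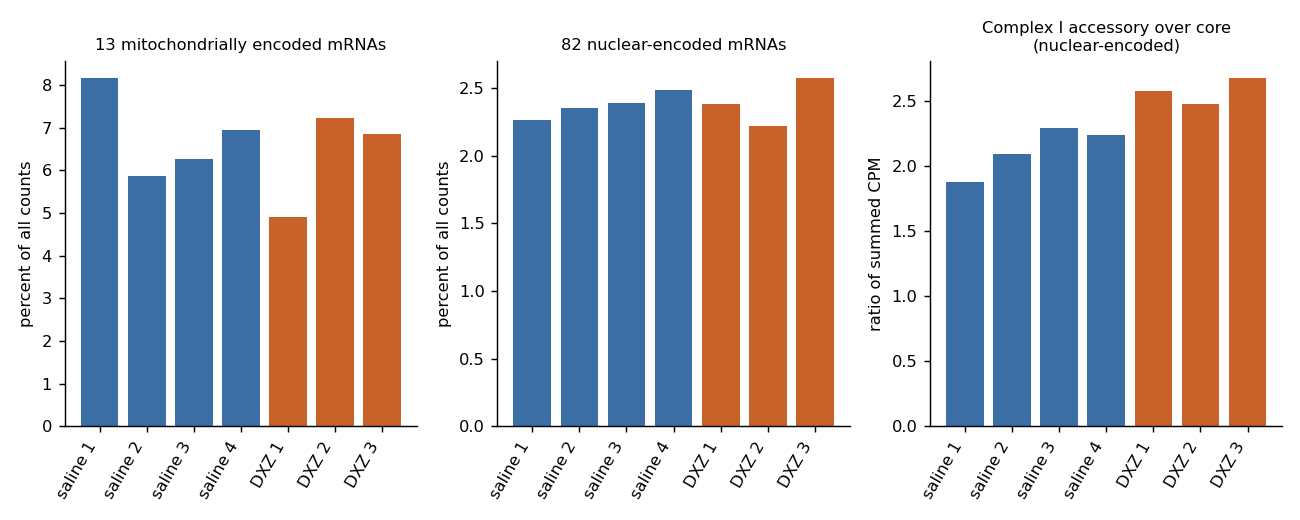
Bars for each library (blue saline, orange DXZ) give the percent of all counts in the 13 mitochondrially encoded mRNAs, the percent in the 82 nuclear-encoded mRNAs, and the ratio of accessory to core CPM in complex I. The first 2 measures overlap between groups, and the ratio is higher in all 3 DXZ libraries.

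Complex II, succinate dehydrogenase, has no mitochondrially encoded subunit and is shared with the tricarboxylic acid cycle. All 4 genes had negative log2 fold changes, with a median of -0.16, and none passed edgeR's test. Sdha, the flavoprotein that oxidises succinate, measured 754, 577, 550 and 689 CPM in saline and 493, 389 and 523 CPM in DXZ. The groups did not overlap, and saline 1 was the highest, with a log2 fold change of -0.46 ± 0.16 (adjusted p = 0.132 by edgeR). Sdhb, the iron-sulfur subunit, was at 323 to 361 CPM in saline and 299 to 339 CPM in DXZ (log2 fold change -0.14). The membrane anchors Sdhc and Sdhd had log2 fold changes of -0.18 and -0.01, and their groups overlapped. Sdhd was the complex II gene of highest level per length, at 243 FPKM.

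Complex III, which transfers electrons from ubiquinol to cytochrome c, had 9 nuclear-encoded members with a median log2 fold change of 0.04. Uqcrc2, a core protein of the matrix arm, measured 391, 326, 306 and 347 CPM in saline and 250, 234 and 267 CPM in DXZ. All DXZ libraries were below all saline libraries. The log2 fold change was -0.45 ± 0.12, and it did not pass (adjusted p = 0.0612 by edgeR). Uqcrc1, the partner core protein, was at 446 to 548 CPM in saline and 458 to 507 CPM in DXZ, with a log2 fold change of -0.11.

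The electron-carrying subunits of complex III overlapped between groups. Uqcrfs1, the Rieske iron-sulfur protein, was at 409 to 476 CPM in saline and 338 to 440 CPM in DXZ (log2 fold change -0.24, adjusted p = 0.292 by edgeR). Cyc1, cytochrome c1, was at 418 to 479 CPM in saline and 413 to 473 CPM in DXZ (log2 fold change 0.01). The small subunit Uqcr11, whose promoter is shown above, measured 105, 96.5, 122 and 135 CPM in saline and 171, 104 and 233 CPM in DXZ. DXZ 1 and DXZ 3 were high and DXZ 2 was within the saline range (log2 fold change 0.56 ± 0.25, adjusted p = 0.209 by edgeR). Uqcr10, the nuclear-encoded complex III gene of highest level per length at 567 FPKM, had a log2 fold change of 0.32 (adjusted p = 0.187 by edgeR), and Uqcrq one of 0.36, with ranges of 251 to 325 CPM in saline and 326 to 458 CPM in DXZ.

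Complex IV, cytochrome c oxidase, had 17 nuclear-encoded members, Ndufa4 and Ndufa4l2 included, with a median log2 fold change of 0.06. None passed edgeR's test. Cox4i1, needed for assembly of the enzyme, measured 837, 865, 847 and 964 CPM in saline and 777, 909 and 1068 CPM in DXZ. The DXZ libraries spanned the saline range (log2 fold change 0.06 ± 0.14, adjusted p = 0.825 by edgeR). Cox5a was at 203 to 249 CPM in saline and 202 to 242 CPM in DXZ (log2 fold change 0.05). Cox8a, with its 2 ETS matches, measured 504, 528, 634 and 678 CPM in saline and 664, 666 and 966 CPM in DXZ. Only DXZ 3 was above every saline library (log2 fold change 0.39 ± 0.18, adjusted p = 0.230 by edgeR).

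Several complex IV subunits exist as isoforms with different tissue patterns, and the widely expressed form had the higher level per length in every pair measured. Mean levels were 575 FPKM for Cox4i1 against 0.988 for Cox4i2, the isoform known from lung. They were 481 FPKM for Cox6b1 against 77.1 for Cox6b2, best known from testis, and 309 FPKM for Cox7a2 against 9.05 for Cox7a1, the heart and muscle form. Cox8a was at 1209 FPKM against 2.37 for Cox8b, and Ndufa4 at 339 FPKM against 3.46 for Ndufa4l2, a hypoxia-inducible paralog. Ndufa4l2 shares 32 exon bases with Shmt2 on the opposite strand, which had more counts, so its level is uncertain. Cox6a1, at 1202 FPKM, had a log2 fold change of 0.14, and its muscle isoform Cox6a2 did not reach the count minimum.

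The forms of the ubiquitous set differed little: Cox6b1 had a log2 fold change of 0.11, Cox7a2 of 0.04, Cox7b of 0.07 and Ndufa4 of 0.03, with overlapping groups. Cox6b2 measured 20.8, 65.5, 94.3 and 74.8 CPM in saline and 87.0, 121 and 138 CPM in DXZ. Saline 1 was far below the rest, and DXZ 1 lay between saline 3 and saline 4 (log2 fold change 0.85 ± 0.43, adjusted p = 0.253 by edgeR). Cox4i2, Cox7a1 and Ndufa4l2 had log2 fold changes of 0.61, -0.30 and -0.45, with adjusted p of 0.437 to 0.747. by edgeR

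Cox8b, the isoform of heart, skeletal muscle and brown fat, had 41, 24, 24 and 5 counts in saline and 5, 2 and 1 counts in DXZ. Saline 4 was close to DXZ 1, at 0.294 against 0.282 CPM, and the other 3 saline libraries were higher. The log2 fold change was -3.10 ± 0.80 (adjusted p = 0.0609 by edgeR). Cox8b reached 10 counts only in saline 1, 2 and 3, so the rule itself favoured a fall in DXZ. Its fold change, its lack of overlap and its calls under other settings are no separate support for one. Adipocyte markers also varied between libraries, not all in the order of Cox8b. Cidea, a lipid droplet protein of brown fat, had 100, 85, 63 and 0 counts in saline and 31, 46 and 39 in DXZ. Ucp1, the brown fat uncoupler, had 21, 1, 162 and 1 counts in saline and 2, 8 and 3 in DXZ. Adipoq had 348, 88, 152 and 4 in saline and 78, 178 and 77 in DXZ. Plin1 had 214, 61, 149 and 4 in saline and 46, 104 and 65 in DXZ. Cfd had 2881, 537, 477 and 38 in saline and 367, 883 and 504 in DXZ. Fabp4 had 1779, 936, 2282 and 606 in saline and 1325, 2028 and 1060 in DXZ. The 7 adipocyte markers summed to 38.4 to 306 CPM in saline and 103 to 196 CPM in DXZ, with Elovl3 at 0 in 5 libraries, and 0 of the 5 tested passed. The 8 muscle markers summed to at least 0.646 and at most 1.10 CPM in every library, with Myh4 at 0 in all libraries. The part of fat tissue in the Cox8b values was not tested.

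Complex V, the ATP synthase, had 17 nuclear-encoded members with log2 fold changes between -0.34 and 0.15 and a median of 0.03, which was -0.09 without DXZ 3. None had an unadjusted p below 0.05. Atp5b, the catalytic beta subunit, measured 3080, 2679, 2508 and 2911 CPM in saline and 2356, 1944 and 2335 CPM in DXZ. The groups did not overlap (log2 fold change -0.34 ± 0.16, adjusted p = 0.234 by edgeR). Atp5a1, the alpha subunit, measured 2194, 1945, 1885 and 2241 CPM in saline and 1678, 1527 and 1866 CPM in DXZ, again without overlap (log2 fold change -0.29 ± 0.15, adjusted p = 0.270 by edgeR). Atp5f1, of the peripheral stalk, also did not overlap, at 537 to 569 CPM in saline and 435 to 500 CPM in DXZ. Per length, Atp5a1 and Atp5b were at 604 and 597 FPKM, the highest of complex V. Atp5mpl, a small membrane subunit, had the largest positive value among the nuclear-encoded members of the complex, a log2 fold change of 0.15.

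**Figure D3:**
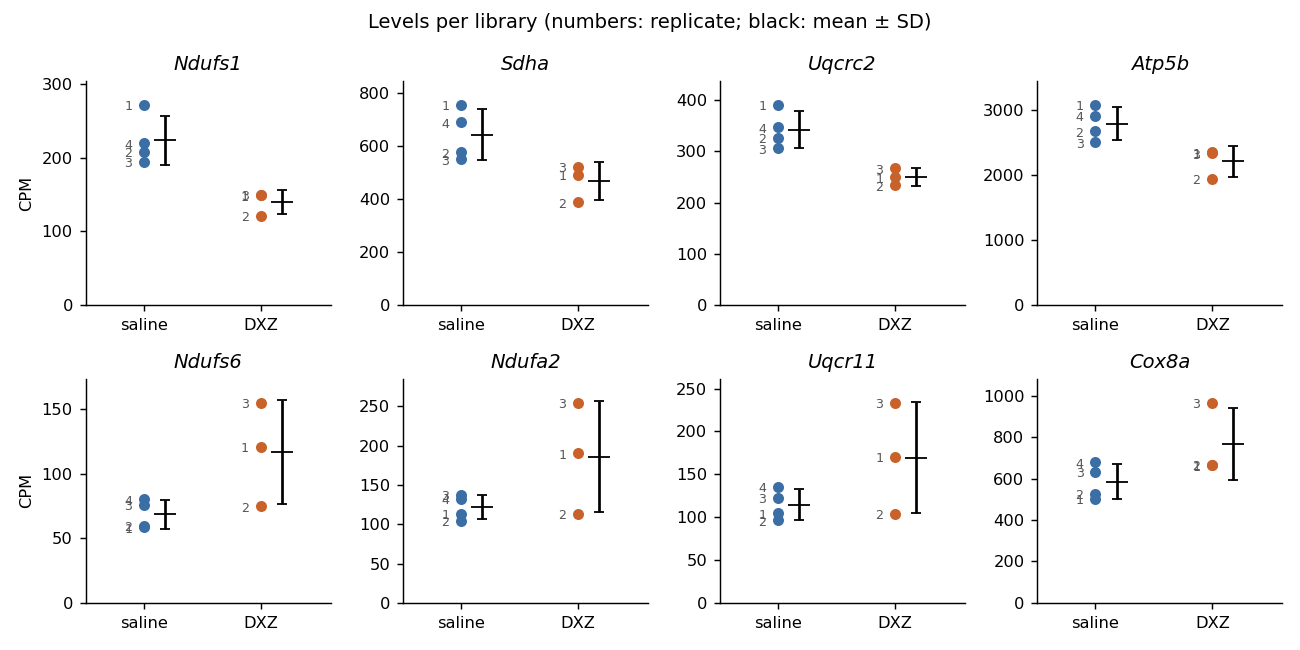
CPM of 8 members in each library (dots, with the replicate number; black, mean ± SD; axes start at 0). In the upper row Ndufs1, Sdha, Uqcrc2 and Atp5b are lower in all DXZ libraries. In the lower row Ndufs6, Ndufa2 and Uqcr11 are high in DXZ 1 and DXZ 3 but not in DXZ 2, and Cox8a is above the saline range in DXZ 3 alone.

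Gene length moved with these differences. Across the 82 nuclear-encoded members the log2 fold change had a Spearman correlation of -0.43 with gene length, against -0.15 across all 15351 genes. These are correlations across genes that share the same 7 libraries, given as a description. The 27 shortest members (360 to 1108 bases) had a median log2 fold change of 0.20, against 0.21 for all tested genes in that length range. The 28 longest (2101 to 8086 bases) had a median of -0.10, against 0.003 for all tested genes in their range. With the trend removed the correlation over members was -0.25.

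The length relation differed between libraries of a group. Correlations of the members' deviation from their mean over libraries with length were 0.39, 0.35, 0.12 and 0.39 in saline and -0.42, -0.00 and -0.37 in DXZ. Over all tested genes the same correlations were 0.11, 0.06, 0.08 and 0.08 in saline and -0.04, -0.11 and -0.15 in DXZ, so that the order of the DXZ libraries was another one there. RNA quality is not given in the labels, and its part was not tested.

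**Figure D4:**
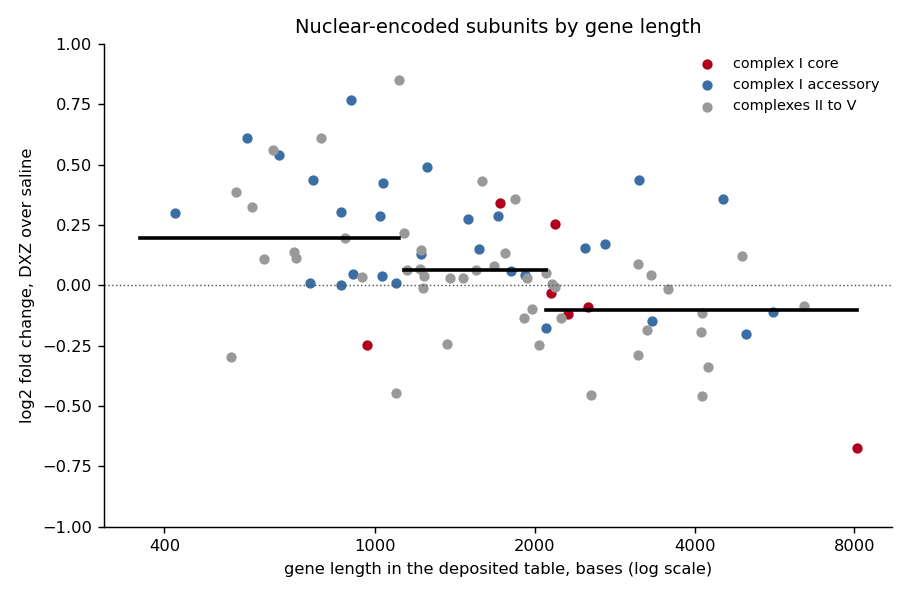
Log2 fold change of the nuclear-encoded members against gene length in exon bases (log scale), with black lines at the medians of the short, middle and long members. Short members lie mostly above 0 and long ones mostly below. Cox8b (-3.10) is outside the plotted range.

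The 13 mitochondrially encoded mRNAs made up 8.16%, 5.86%, 6.27% and 6.95% of all counts in saline and 4.90%, 7.22% and 6.85% in DXZ. The 82 nuclear-encoded mRNAs made up 2.27% to 2.49% in saline and 2.22% to 2.57% in DXZ. The ratio of the first to the second was 3.60, 2.49, 2.62 and 2.79 in saline and 2.05, 3.25 and 2.66 in DXZ. Saline 1 and DXZ 1 held the highest and the lowest ratio, and the groups overlapped in all 3 measures.

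None of the 13 mitochondrially encoded mRNAs passed edgeR's test, and 1 of them, mt-Atp6, had an unadjusted p below 0.05. Their direction changed with single libraries: the median log2 fold change of -0.04 became 0.16 without DXZ 1 and -0.21 without DXZ 3. mt-Co1, the catalytic subunit of complex IV, measured 33279, 24533, 25873 and 30062 CPM in saline and 19408, 34298 and 29581 CPM in DXZ. DXZ 1 was the lowest library and DXZ 2 the highest (log2 fold change -0.03 ± 0.32, adjusted p = 0.959 by edgeR). mt-Cytb, the mitochondrially encoded subunit of complex III, measured 16376, 9186, 10057 and 11863 CPM in saline and 7004, 10792 and 10690 CPM in DXZ, with saline 1 the highest and DXZ 1 the lowest (log2 fold change -0.32 ± 0.30).

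The mt-Nd mRNAs encode the membrane subunits of complex I. mt-Nd1 ranged from 9808 to 13680 CPM in saline and from 7435 to 13881 CPM in DXZ, with a log2 fold change of -0.06. Log2 fold changes were -0.44 for mt-Nd2, -0.29 for mt-Nd4 and -0.04 for mt-Nd5, with overlapping groups and adjusted p of 0.315 to 0.942. by edgeR mt-Nd6, the one mRNA read from the other strand of mitochondrial DNA, had a log2 fold change of 0.11, and its counts are uncertain because the strand setting of the counting is not given in the sources used here.

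The other 6 mitochondrial mRNAs, those of mt-Co2, mt-Co3, mt-Atp6, mt-Atp8, mt-Nd3 and mt-Nd4l, had mean levels of 2.90 to 218 FPKM, while the first 7 had 1905 to 18132 FPKM. These 6 lie in a stretch of mitochondrial DNA that is also present in the nuclear genome, on chromosome 1 from 24611535 to 24616197, minus strand (GRCm38), over 4663 bases. GENCODE annotates 7 copies there with at least 99% identity, and 5 of them, those of mt-Co2, mt-Co3, mt-Atp6, mt-Nd3 and mt-Nd4l, cover over 98% of the mRNA. mt-Atp8 has no annotated copy of its own. It starts in the interval of 233 bases between the Co2 and Atp6 copies, equally long at both places. Its end lies inside mt-Atp6: mt-Atp8 spans 7766 to 7969 and mt-Atp6 spans 7927 to 8607 on the mitochondrial chromosome. The copies of mt-Co1 (31.3% of the mRNA) and mt-Nd4 (63.6%) are partial.

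To show how alike the places are, the start of mt-Nd3 (chrMT:9459-9519, plus strand) is set beside its copy Gm28438 (chr1:24613059-24613119, minus strand). The capital marks the single difference in the aligned part of mt-Nd3, T3C, counted from 1 at the first base of the mt-Nd3 sequence shown.
mt-Nd3: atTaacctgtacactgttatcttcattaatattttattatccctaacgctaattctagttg
Gm28438: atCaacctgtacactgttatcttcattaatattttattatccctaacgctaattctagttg

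A read from any other part of this pair has the same letters at both places. The copy of mt-Nd3 had 71 to 207 counts per library and mt-Nd3 itself 461 to 1436. The copy of mt-Atp6, Gm10925, had 2023, 816, 621 and 797 counts in saline and 1100, 1391 and 1208 in DXZ, while mt-Atp6 itself had 1999, 532, 694 and 879 counts in saline and 3748, 1320 and 3445 in DXZ. The values of these 6 mRNAs are therefore uncertain. Reads from the copied parts of mt-Co1 and mt-Nd4 share this limit, and so do the sums over mitochondrial mRNAs. The mt-Co1 copy had 587 to 3391 counts per library, against 344361 to 580496 for mt-Co1. The mt-Nd4 copy had 120 to 481, against 54867 to 119464 for mt-Nd4. mt-Atp6, a proton channel subunit of complex V, was at 115, 31.6, 42.4 and 51.7 CPM in saline and at 211, 79.8 and 203 CPM in DXZ. DXZ 2 was below saline 1, and the other pairs of libraries were ordered with DXZ higher.

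The log2 fold change of mt-Atp6 was 1.46 ± 0.48 (adjusted p = 0.108 by edgeR). It passed edgeR's test without saline 1 (log2 fold change 1.97, adjusted p = 0.043), and it was 0.96 (adjusted p = 0.177 by edgeR) when the copy's counts were added. mt-Atp8, which overlaps mt-Atp6, had 5, 3, 1 and 11 counts in saline and 24, 2 and 26 in DXZ (log2 fold change 1.75 ± 0.86, adjusted p = 0.248 by edgeR). The annotated mt-Nd4l and mt-Nd4 also overlap. Mean levels were 153 FPKM for mt-Atp6 against 2.90 for mt-Atp8, and 3300 FPKM for mt-Nd4 against 26.4 for mt-Nd4l. These values are counts per annotated gene and are not shown to be levels of separate molecules. For mt-Atp8, DXZ 2 was within the saline range. mt-Co2 and mt-Co3, the other mitochondrially encoded subunits of complex IV, had log2 fold changes of 0.34 and 0.24, and mt-Nd3 and mt-Nd4l of -0.43 and -0.42, with overlapping groups and adjusted p of 0.452 to 0.743. by edgeR

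**Figure D5:**
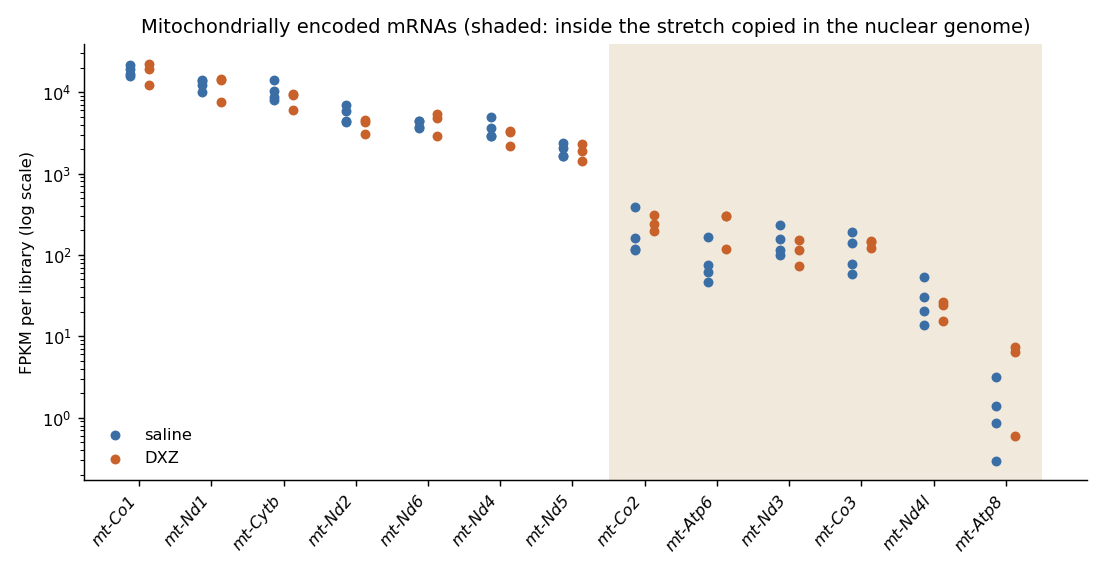
FPKM of the 13 mitochondrially encoded mRNAs in each library (log scale, blue saline, orange DXZ), ordered by mean. The 6 mRNAs of the stretch with a nuclear copy (shaded) lie below the other 7, and the groups overlap for every mRNA.

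Genes that build and supply the chain were counted from lists chosen by function. No assembly factor of complex I (17 tested), IV (20) or V (5) passed edgeR's test in either direction. Of 10 factors for complexes II and III, 1 rose: Uqcc2, needed for complex III assembly, measured 26.8, 32.6, 41.1 and 41.4 CPM in saline and 56.9, 57.2 and 57.0 CPM in DXZ, with no overlap (log2 fold change 0.68 ± 0.15, adjusted p = 0.045 by edgeR). Of 14 genes for cytochrome c and coenzyme Q synthesis, 1 fell: Coq8a, an atypical kinase of the coenzyme Q pathway, was at 100 to 145 CPM in saline and 57.9 to 68.8 CPM in DXZ (log2 fold change -0.87, adjusted p = 0.023 by edgeR). Cycs, cytochrome c itself, was at 299 to 322 CPM in saline and 345 to 467 CPM in DXZ, and did not pass (log2 fold change 0.40, adjusted p = 0.091 by edgeR).

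Of 12 regulators of mitochondrial biogenesis, 0 passed, with a median log2 fold change of -0.20. Ppargc1a, the coactivator PGC-1 alpha, had a log2 fold change of -0.24, the nuclear receptor Esrra one of -0.15, and Nrf1 one of 0.24, with adjusted p of 0.241 to 0.711. by edgeR Of 17 genes of mitochondrial DNA maintenance and transcription, 0 passed and 13 had negative values, with a median of -0.27. Tfam, which packages mitochondrial DNA, was at 61.5 to 68.5 CPM in saline and 51.0 to 59.0 CPM in DXZ (log2 fold change -0.24, adjusted p = 0.144 by edgeR). Polrmt, the mitochondrial RNA polymerase, was at 32.8 to 40.3 CPM in saline and 25.3 to 30.0 CPM in DXZ (log2 fold change -0.41, adjusted p = 0.080 by edgeR). Neither overlapped between groups.

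Of 16 genes of mitochondrial RNA processing, 1 fell, Fastkd1 (log2 fold change -0.47, adjusted p = 0.047 by edgeR), and Lrpprc, which stabilises mitochondrial mRNAs, had a log2 fold change of -0.33 (adjusted p = 0.156 by edgeR). Of 18 genes of the tricarboxylic acid cycle and pyruvate dehydrogenase, 2 fell, 0 rose and 16 had negative values, with a median of -0.22. Those that fell were the beta subunits of succinyl-CoA synthetase, the enzyme that makes the substrate of complex II. Suclg2 was at 386 to 513 CPM in saline and 218 to 304 CPM in DXZ (log2 fold change -0.73, adjusted p = 0.045 by edgeR), and Sucla2 at 194 to 241 CPM in saline and 147 to 156 CPM in DXZ (log2 fold change -0.50, adjusted p = 0.038 by edgeR).

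Of 77 mitochondrial ribosomal proteins, 2 rose and 1 fell, with a median log2 fold change of 0.10. Mrpl52 and Mrps10 had log2 fold changes of 0.53 and 0.44, and Mrpl50 of -0.53 (adjusted p of 0.031, 0.046 and 0.022 by edgeR). Of 21 genes of import and dynamics 1 rose, Tomm5, a small subunit of the outer membrane import pore (log2 fold change 0.47, adjusted p = 0.049 by edgeR). In each of these lists the share that passed in one direction can be read against 3.24% higher and 2.31% lower over all tested genes. Negative log2 fold changes were found for 7478 of all 15351 tested genes.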

How the data were processed

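The authors deposited whole-number counts per gene and library, and FPKM values that equal the same counts over gene length, scaled by a single factor in each library. The submitters' processing notes name HISAT2, StringTie and mm9, with no version or role. Of 54409 shared genes, 53499 (98.3%) had the start and end of GENCODE M21 on GRCm38, so coordinates are taken as GRCm38. The sources used here do not name the counting program or its strand setting.

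Counts were scaled by TMM, filtered by filterByExpr and tested with edgeR 4.0.16 (quasi-likelihood F test, Benjamini-Hochberg over 15351 genes, adjusted p below 0.05) in R 4.3.3. CPM used TMM-adjusted sizes. The SE is the log2 fold change over the square root of F. The script was tested on simulated data. The depth was 16058157 to 18133736 counts per library, and the precision rests on the spread between the 7 libraries as well. Scores over members have no p. The alternatives used limma 3.58.1, DESeq2 1.42.0, other scalings and filters, FPKM, a length correction, a replicate block and each library left out.

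Members and lists were chosen with earlier results of these data known. Named were members past the test, the 13 mitochondrial mRNAs, in each complex the nuclear-encoded genes of highest FPKM and largest positive and negative fold change, the complex IV isoforms, a set of genes chosen for their role (among them Ndufv1, Sdhb, Uqcrc1, Cycs, Tfam, Slc34a1 and Lrp2) and up to 3 changed genes of each list. Slc34a1 and Lrp2, of the proximal tubule, were lower in DXZ by edgeR, at -2.88 and -1.64 on the log2 scale (adjusted p = 0.037 and 0.023).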

Additional observations from a re-analysis of the deposited data

Results flagged for a closer look

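Of 57 items checked, Cyc1, the cytochrome c1 of complex III, had a library far from the rest of its group. Saline 4 was at 479 CPM, while the other 3 saline libraries were at 418 to 422 CPM, and the gap was 0.94 of the group's range, above the critical value of the Dixon test for 4 samples. Chance alone flags about 1 group in 20. The DXZ libraries were at 413 to 473 CPM, so saline 4 was the highest of all 7.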

How the results depend on the processing

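Of 874 values for 42 named members under the alternatives, 806 kept direction and side of the threshold, 10 lost the call, 9 gained one and 49 changed sign, none of the 49 for Ndufs1. The 10 lost calls were all of Ndufs1. Members called numbered 1 with edgeR, 5 with DESeq2 (Ndufa5 and Ndufs6 higher, Cox8b, Ndufs1 and Uqcrc2 lower), 2 without a low-count filter (Cox8b and Ndufs1), and 0 with total counts, with limma on log2(FPKM + 1) unfiltered, with the length trend removed or with the replicate block. With single libraries left out the number was 0 to 4, with 4 without DXZ 1. Without saline 1 and DXZ 1 together, a choice made after seeing the data, it was 4 (Ndufs1 lower, Cox6b2, mt-Atp6 and mt-Co2 higher). Over all genes the calls numbered 853 with edgeR, 2011 with DESeq2, 145 with unfiltered log2(FPKM + 1), 85 with the replicate block, 1332 without saline 1 and DXZ 1, and 1 to 1574 with single libraries left out. The cause of these differences was not tested.

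Same-numbered saline and DXZ libraries had correlations of 0.26, -0.09 and 0.23 in their deviations, so the numbers were not taken as pairs. With the replicate block, which leaves saline 4 without a partner, Ndufs1 had an edgeR adjusted p of 0.093, Sdhd a log2 fold change of 0.025 and mt-Nd5 of 0.00064. The nuclear-encoded median ranged from -0.01 to 0.15 and the mitochondrially encoded median from -0.21 to 0.16 with single libraries left out; the latter was 0.24 without saline 1 and DXZ 1 and 0.06 with limma-voom weights. The nuclear-encoded medians of complexes III, IV and V ranged from -0.02 to 0.15, 0.01 to 0.17 and -0.09 to 0.09 in the same fits.

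Sign changes on the log2 scale were as follows. With the length trend removed the values were Cox4i1 at -0.017, Cox6a1 at -0.0082, Cox6b1 at -0.034, Cox7a2 at -0.088, Cox7b at -0.034, Cyc1 at -0.043, Ndufa4 at -0.061 and mt-Nd6 at -0.063. Sdhd was at 0.017 with total counts, and Cyc1 at -0.0022 without a filter. With limma-voom weights they were mt-Co1 at 0.060, mt-Nd1 at 0.043, mt-Nd4l at 0.00073 and mt-Nd5 at 0.12. Without saline 1 and DXZ 1 they were mt-Co1 at 0.25, mt-Cytb at 0.050, mt-Nd1 at 0.24, mt-Nd3 at 0.082, mt-Nd4 at 0.068, mt-Nd4l at 0.23 and mt-Nd5 at 0.23. With single libraries left out, these ranges included 0: Atp5mpl -0.023 to 0.28, Cox4i1 -0.062 to 0.17, Cox5a -0.00056 to 0.14, Cox7a2 -0.042 to 0.17, Cox7b -0.013 to 0.19, Cyc1 -0.060 to 0.054, Ndufa4 -0.033 to 0.12, Ndufv1 -0.27 to 0.053, Sdhd -0.061 to 0.022, mt-Co1 -0.22 to 0.17, mt-Nd1 -0.21 to 0.17, mt-Nd4l -0.66 to 0.041, mt-Nd5 -0.22 to 0.12 and mt-Nd6 -0.071 to 0.33.

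Depth limits the low members: Cox8b, Cox4i2 and mt-Atp8 had at most 41 counts in a library, and a change in them was not detectable unless large.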
